A study of Arabidopsis thaliana with 6 samples.

Results

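The tandem cluster around AIR1 and EARLI1 comprised 9 neighbouring loci on chromosome 4, from AT4G12470 (AZI1) to AT4G12550 (AIR1). The members were chosen by locus ID, with the auxin contrast described here already known, so the values below describe them and no value of this contrast is used as a test of the choice. Of the 9 loci, 8 had a row among the 20423 genes of the deposited table, and AT4G12530 had none. All 9 loci encode small proteins that end in the eight-cysteine domain of the lipid-transfer and hybrid proline-rich family.

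Roots of Arabidopsis thaliana Col-0 wild-type seedlings, 3 days after germination, were profiled by RNA-Seq on the SOLiD platform. In the IAA group, seedlings were placed for 6 h in reduced-strength liquid Murashige and Skoog medium with 1 µM IAA (indole-3-acetic acid, the chief auxin that plants make). In the control group, seedlings spent the same 6 h in the same liquid medium without IAA. The labels list 3 libraries per group, each pooled from about 100 roots, and the comparison asked how root transcript levels differed after some hours of auxin.

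The table gives 1 value per gene and group, which is the authors' mean of normalized read numbers, with 0 columns for single libraries. No spread between libraries, no standard error and no test could therefore be computed, and every quotient of an IAA mean over a control mean below is without a replicate check. All values under 4 were whole sums of 2 steps per column within 0.0055, which puts 1 read at 0.396 on average in the IAA column and 0.612 in the control column. Only 2 steps were seen although the labels give 3 libraries, so the number of libraries behind each mean is not known. From these steps, the IAA column held about 2206196 reads and the control column about 1502697 reads. Counting intervals were derived from the same steps and cover counting error only. In pooled roots, fewer cells of a type and less RNA per cell cannot be told apart.

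Hybrid proline-rich proteins carry a signal peptide, a proline-rich stretch and a compact C-terminal domain held together by a conserved eight-cysteine pattern, which resembles that of lipid-transfer proteins. AZI1 is known for its part in priming systemic immunity by azelaic acid, and EARLI1 is a close relative known from responses to cold and to aluminium. AIR1 takes its name from its induction by auxin in root cultures. Such genes often lie in tandem, and short reads cannot always tell near-identical copies apart.

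The members did not differ between the groups as a block. After IAA, EARLI1 had a much higher mean than in the control, AZI1 was higher at a low level, AIR1 and AT4G12545 were abundant in both groups and moderately higher after IAA, and AT4G12510 with AT4G12520 were listed at 0 after IAA although both were well covered in the control. With an average of both means of at least 5 and both means above 0 as the minimum, 14287 genes could be compared. Of these, 14.5% were at least 2-fold higher after IAA and 12.6% were at least 2-fold lower. Only 3 members, EARLI1, AT4G12545 and AIR1, passed this minimum, of which 1 was at least 2-fold higher and 0 were at least 2-fold lower. AT4G12510 and AT4G12520 failed the minimum solely through their IAA mean of 0. The members with a lower mean after IAA are therefore outside this count and outside the median given below. Since the members were also picked with this contrast known, nothing is read from the count or the median. The median log2 quotient was 0.80 over the 3 members and 0.0 over all genes compared, with quartiles of -0.54 and 0.59.

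**Figure D1:**
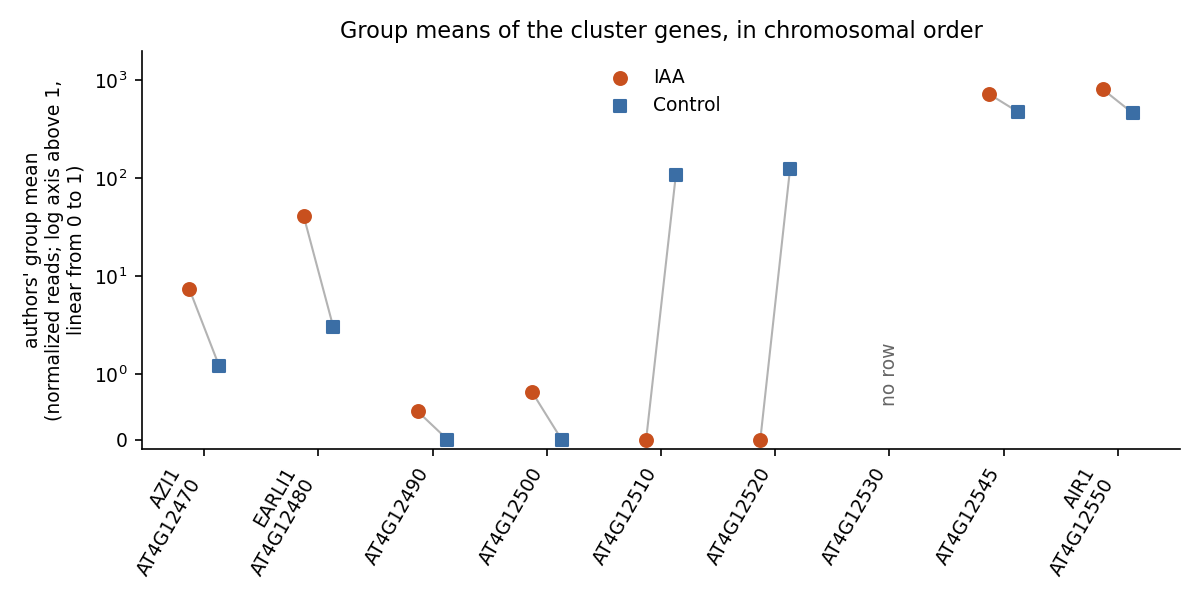
The authors' group mean of each cluster gene in normalized reads (log axis above 1, linear from 0 to 1), in chromosomal order, with circles for IAA and squares for Control joined by a line. EARLI1 stood at 41.6 after IAA against 3.04 in Control, whereas AT4G12510 and AT4G12520 lay at 0 after IAA against 107 and 124 in Control, and AT4G12530 had no row.

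The cluster spanned 38719 bases of the TAIR10.1 assembly (chr4:7401087-7439805). The first 7 loci lay on the minus strand and the last 2, AT4G12545 and AIR1, on the plus strand, and each locus was annotated with 1 exon. The encoded proteins fell into 3 kinds by their sequence. AZI1, EARLI1, AT4G12490 and AT4G12500 had 161 to 182 residues, and prolines made up 24.7% to 27.6% of the residues before the eight-cysteine domain. AT4G12510 and AT4G12520 had 129 residues each, with 8.89% proline in the same stretch. AT4G12530, AT4G12545 and AIR1 were the shortest, with 108 to 117 residues and 3.03% to 7.41% proline. Within the eight-cysteine domain, the 4 proline-rich proteins were 89.2% to 96.4% identical to one another, and 69.9% to 74.7% identical to the AT4G12510 and AT4G12520 proteins. The 3 short proteins shared 51.8% to 63.1% of the domain with the proline-rich ones. Each kind thus occupied its own stretch of the locus.

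**Figure D2:**
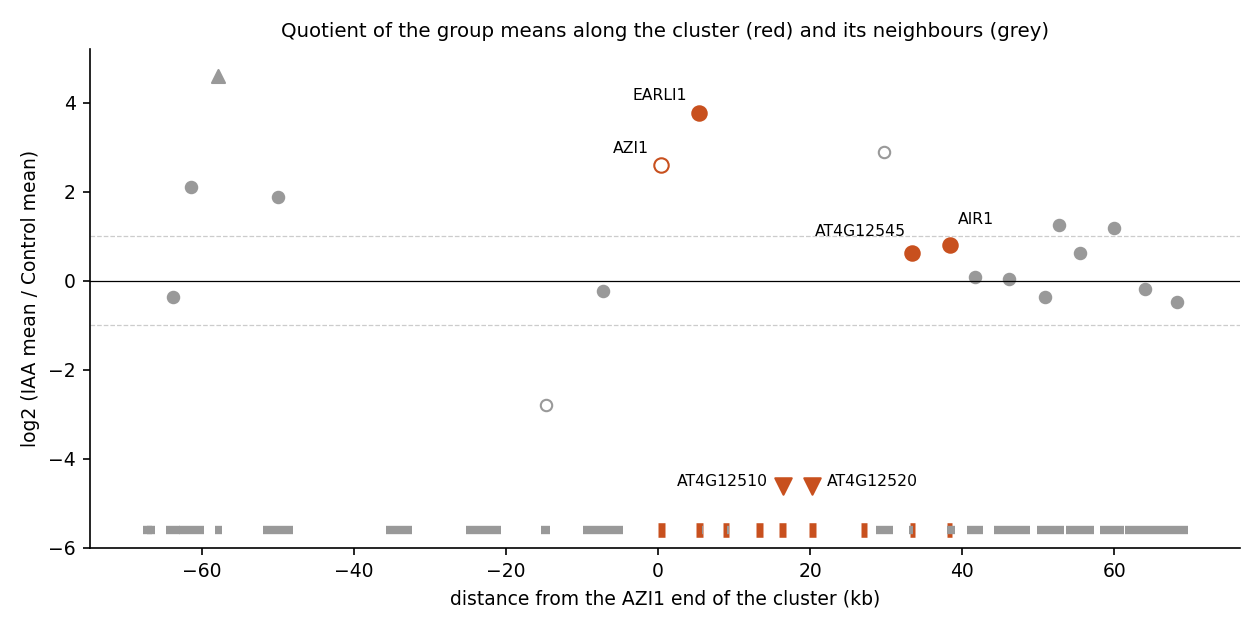
The log2 quotient of the IAA mean over the Control mean (vertical axis) against distance in kb from the AZI1 end of the cluster, for cluster genes (red) and 10 protein-coding loci on each side (grey). Filled circles are genes past the minimum, open circles are genes under it, triangles at the margin are genes listed at 0 in 1 group whose average still reached the minimum (they have no value on the axis, and other genes listed at 0 are not drawn), dashed lines mark 2-fold, and bars at the base show the annotated loci. EARLI1 lay at 3.77, AT4G12545 at 0.62 and AIR1 at 0.80.

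EARLI1 (AT4G12480, chr4:7406065-7406994, minus strand), a hybrid proline-rich protein gene, showed the largest quotient in the cluster. Its mean was 41.6 after IAA and 3.04 in the control, a quotient of 13.7. These means rest on about 105 reads after IAA and about 5 reads in the control, so the 95% counting interval of the quotient ran from 5.64 to 42.7. Per kb of exon, EARLI1 stood at 44.7 after IAA and 3.27 in the control. Of the 14287 genes compared, 0.679% had a higher quotient. EARLI1 passed the minimum average through its IAA mean and was picked with this contrast known, so this share is a description and no test. Genes at 0 in the control have no quotient and are outside this share, among them 81 with an IAA mean of at least 5. Of its 60-base windows, the length of the reads, 100% occurred once in the genome as exact matches, and 97.1% had no second match at up to 2 mismatches.

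AZI1 (AT4G12470, chr4:7401087-7401951, minus strand) lay next to EARLI1 and differed in the same direction at a lower level. Its mean was 7.38 after IAA and 1.22 in the control, about 19 reads and 2 reads. The quotient of 6.05 had a counting interval of 1.48 to 54.4, and the average of both means stayed under the minimum. AT4G12490 and AT4G12500, the other proline-rich genes (chr4:7409621-7410406 and chr4:7413990-7414955, both minus strand), were close to absent in both groups. AT4G12490 was at 0.43 after IAA, the worth of 1 read, and was listed at 0 in the control. AT4G12500 was at 0.73 after IAA, the worth of 2 reads, and was listed at 0 in the control. At this depth no difference was detectable for these 2 genes. The proline-rich kind was therefore represented after IAA mainly by EARLI1, at 44.7 normalized reads per kb against 8.53 for AZI1 and 0.547 to 0.756 for the other genes of this kind.

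The regions before the transcription start of EARLI1 and AZI1 are shown because these neighbours had the highest quotients among the members with a value in both groups. The sequences are from RefSeq, assembly TAIR10.1, the 250 bases before the annotated start (chr4:7406995-7407244 for EARLI1 and chr4:7401952-7402201 for AZI1, both minus strand), and capitals mark TTGACN and TATAAA on either strand.
EARLI1: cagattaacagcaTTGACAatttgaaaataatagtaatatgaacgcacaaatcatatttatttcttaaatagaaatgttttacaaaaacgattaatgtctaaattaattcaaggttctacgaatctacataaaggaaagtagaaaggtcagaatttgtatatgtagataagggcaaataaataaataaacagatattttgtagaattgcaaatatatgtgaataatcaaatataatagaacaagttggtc
AZI1: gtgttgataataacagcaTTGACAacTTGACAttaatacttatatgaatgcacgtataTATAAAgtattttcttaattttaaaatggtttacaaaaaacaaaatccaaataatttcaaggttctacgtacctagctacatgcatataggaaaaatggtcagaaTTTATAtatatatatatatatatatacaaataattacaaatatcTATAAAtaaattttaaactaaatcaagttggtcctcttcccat
TTGACN, a pattern that takes in the W-box bound by WRKY factors but is wider than it, began at base -237 before the EARLI1 start and at bases -232 and -224 before the AZI1 start. All of these read TTGACA, whereas the usual W-box has C or T after the core. Promoters of 300 bases, from 250 before to 50 after the annotated start, were then searched on both strands in all members and in 27561 Arabidopsis genes. TGTCTC, a core of auxin response elements, was in 0 of the 9 member promoters and in 14.1% of all promoters. The variant core TGTCGG was in 0 member promoters and in 5.12% of all promoters. No other TGTC hexamer was searched, although the study describes TGTC-containing elements as the sites that auxin response factors bind. The EARLI1 sequence shown holds TGTCTA, and each TTGACA reads TGTCAA on the other strand. The 250 bases before the AT4G12510 start also hold TGTCTA, as well as TGTCCA, and such hexamers were not counted over the members. The G-box CACGTG was in 0 member promoters and in 7.65% of all promoters. TTGACN was present in 6 member promoters, those of the proline-rich genes, AT4G12545 and AIR1, and in 50.4% of all promoters. The match read TTGACA in AT4G12490, and TTGACT, with the usual T after the core, in AT4G12500, AT4G12545 and AIR1. TATAAA was present in 8 member promoters, EARLI1 being the exception, and in 52.1% of all promoters. These are matches of letters in a short window, and no factor was measured.

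AT4G12510 and AT4G12520 had the largest differences in means toward lower values within the cluster. AT4G12510 (chr4:7417068-7417873, minus strand) was listed at 0 after IAA and had a mean of 107 in the control. AT4G12520 (chr4:7420951-7421828, minus strand) was listed at 0 after IAA and had a mean of 124 in the control. The control values correspond to about 176 reads for AT4G12510 and about 203 reads for AT4G12520, and a count of 0 after IAA allows a mean of up to 1.19, the worth of 3 reads. No quotient is given against a value of 0. The study's methods set aside transcripts whose quotient was 0 or infinite before genes were called, a step that concerns both copies. Per kb of exon, the copies were at 0 after IAA and at 133 and 141 in the control. These control values were close, but they were not corrected for the part of each copy that uniquely mapped reads could cover.

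The zeros stood apart in the table by their depth. On the scale of means, not per length, 65 genes were listed at 0 after IAA with a control mean of at least 5, and 81 genes showed the reverse. AT4G12510 and AT4G12520 had the highest control means of the 65, and the next, AT4G22666, was at 32.3. Among the 1302 genes with a control mean at or above that of AT4G12510, these 2 alone were listed at 0 after IAA. The lowest other IAA mean in that set was 4.81, for the vacuolar aquaporin gene TIP2;3, which had 147 in the control. Neighbouring genes formed 2 pairs among the 65, namely AT1G05650 with AT1G05660 and AT4G12510 with AT4G12520.

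**Figure D3:**
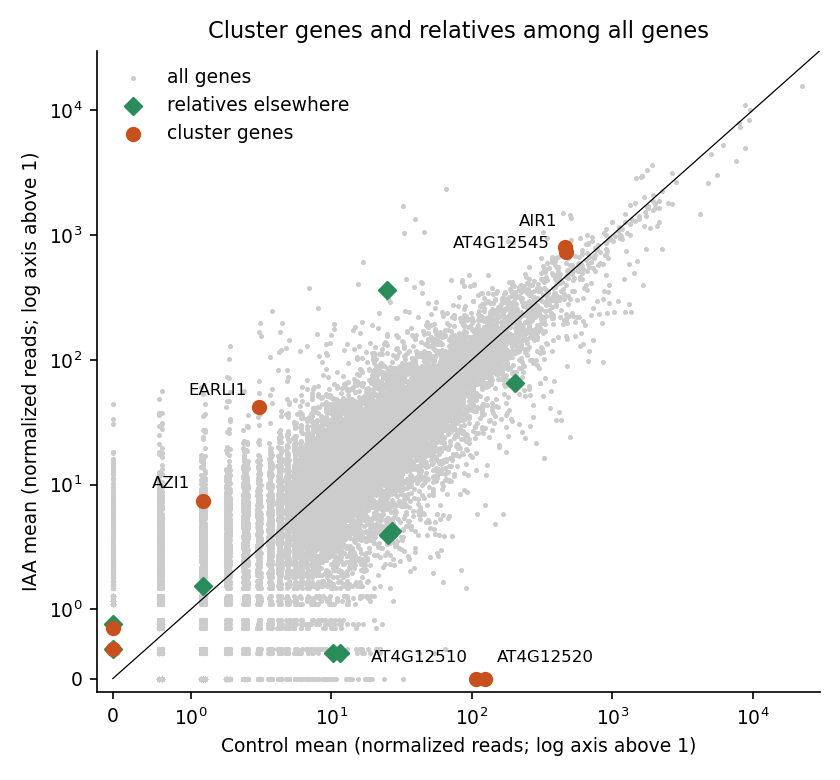
The authors' IAA mean (vertical) against the Control mean (horizontal) for all 20423 genes, in normalized reads on axes that are logarithmic above 1, with cluster genes as circles, relatives elsewhere in the genome as diamonds and the diagonal marking equal means. AT4G12510 and AT4G12520 lay at 0 after IAA and at 107 and 124 in Control, apart from the other genes listed at 0.

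The copies were near identical, which bears on how their reads were counted. Their proteins were identical, and 388 of 390 coding bases were the same. The differences were T372C and T375C, with the base of AT4G12510 first, the position counted from 1 at the A of the start codon, and the base of AT4G12520 last. The last 60 coding bases of each copy are shown because they hold both differences, in capitals (RefSeq, TAIR10.1, chr4:7417414-7417473 and chr4:7421279-7421338, both minus strand).
AT4G12510: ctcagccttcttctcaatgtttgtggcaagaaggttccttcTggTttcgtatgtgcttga
AT4G12520: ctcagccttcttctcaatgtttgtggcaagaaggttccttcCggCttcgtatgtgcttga
Before these differences the copies shared an unbroken identical run of 371 coding bases. Of 331 coding windows of 60 bases, 19 in each copy occurred once in the genome. Of the windows not wholly coding, 346 of 416 in AT4G12510 and 328 of 488 in AT4G12520 occurred once. In all, 48.9% of the AT4G12510 windows and 42.4% of the AT4G12520 windows could give an exact uniquely mapped read, whereas 18105 of 20192 genes had all their windows found once. Only uniquely mapped reads were counted in the study, so the control means of these genes come from part of each transcript. Per 100 windows found once, the control means were 29.4 for AT4G12510 and 35.7 for AT4G12520, against 80.0 for AIR1 and 86.2 for AT4G12545.

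**Figure D4:**
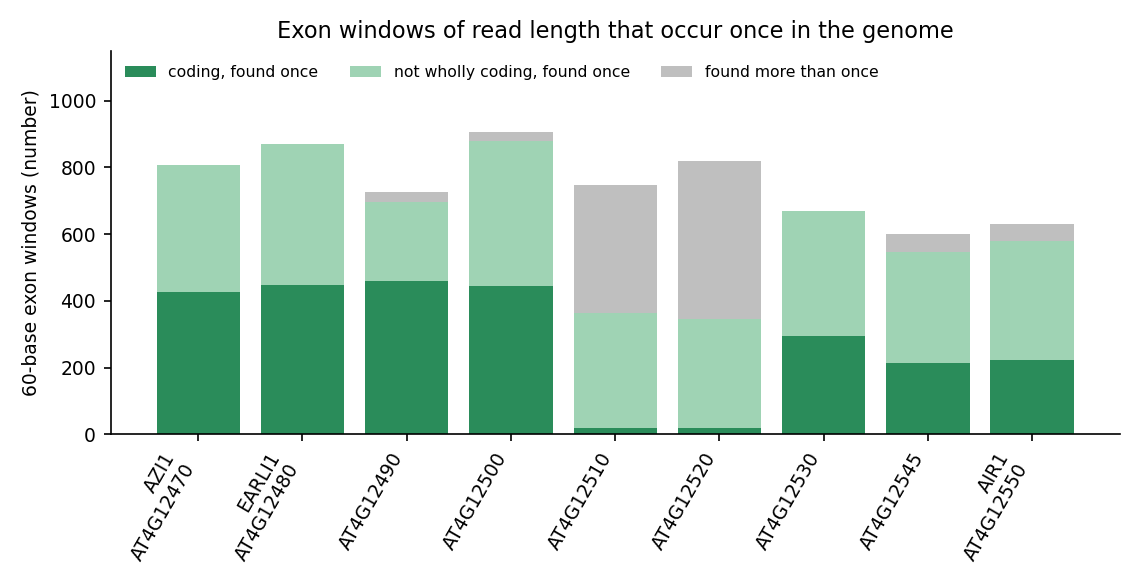
Number of 60-base exon windows of each cluster gene that were wholly coding and found once in the genome (dark), not wholly coding and found once (light), or found more than once (grey). AT4G12510 and AT4G12520 each kept 19 of 331 coding windows, whereas AZI1, EARLI1 and AT4G12530 kept all of theirs.

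Window uniqueness was also counted for the other genes listed at 0. Of the 65 genes at 0 after IAA, 3 had under 90% of windows found once, both copies among them. In the table, 266 genes had under 50% of windows found once, both copies among them. Of the 266 genes, 171 had a control mean of at least 5. Of those 171 genes, 2 were listed at 0 after IAA, which were these copies, and 169 had a value above 0 with a median quotient of 1.00. The matching shares over all genes were not computed, so neither count is read as a contrast. The reads that fell outside the unique windows are not in the table, and the part of read assignment in the zeros was not tested.

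The copies also shared their upstream region. Counted from the start codon, successive windows of 250 bases were 99.2%, 99.2%, 100%, 100% and 98.8% identical, then 89.3% and 86.6%, and 52.3% in the window from 1751 to 2000 bases. After the stop codon, identity was 84.3% in the first 50 bases and 82.4% in the next 50, and lower further on. The start codons lay 3865 bases apart, and the annotated transcription start was 70 bases before the start codon in AT4G12510 and 160 bases before it in AT4G12520. The 250 bases from -410 to -161 before each start codon are shown because the control levels per kb were close while 246 of these bases were the same (RefSeq, TAIR10.1, chr4:7417964-7418213 and chr4:7421829-7422078, both minus strand). Whether the shared bases bear on the levels was not tested. Capitals mark the 4 bases that differ, and TATAAA began at -183 from the start codon in both copies.
AT4G12510: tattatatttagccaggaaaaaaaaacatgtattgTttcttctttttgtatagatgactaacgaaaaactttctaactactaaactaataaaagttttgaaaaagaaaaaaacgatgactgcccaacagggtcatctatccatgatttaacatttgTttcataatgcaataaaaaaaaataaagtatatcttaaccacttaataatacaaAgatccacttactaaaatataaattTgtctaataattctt
AT4G12520: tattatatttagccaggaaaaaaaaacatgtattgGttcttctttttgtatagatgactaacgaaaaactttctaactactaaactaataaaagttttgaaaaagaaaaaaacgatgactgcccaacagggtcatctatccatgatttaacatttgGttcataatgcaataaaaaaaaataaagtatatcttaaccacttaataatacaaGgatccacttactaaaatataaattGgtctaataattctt

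AIR1 (AT4G12550, chr4:7439115-7439805, plus strand) was the most abundant member in the IAA group. Its mean was 807 after IAA and 463 in the control, about 2038 and 757 reads. The quotient was 1.74 with a counting interval of 1.60 to 1.90. AT4G12545 (chr4:7434199-7434858, plus strand), which encodes a protein of the same short kind, had a mean of 727 after IAA and 472 in the control, about 1836 and 772 reads. Its quotient was 1.54 with a counting interval of 1.41 to 1.68. Both quotients stayed under 2-fold, and 18.8% of all genes compared had a higher quotient than AIR1 and 24.1% a higher one than AT4G12545. Among the 253 genes within 2-fold of the average level of AIR1, 7.51% had a higher quotient than AIR1, and for AT4G12545 the share was 17.1% of 281 genes.

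Per kb of exon, AIR1 stood at 1168 after IAA and 670 in the control, and AT4G12545 at 1102 after IAA and 716 in the control. AIR1 thus had 1.11 times the mean of AT4G12545 after IAA and 0.981 times its mean in the control, on the scale of means. Ordered by level per kb after IAA, the members ran from AIR1 and AT4G12545 to EARLI1, AZI1, AT4G12500, AT4G12490 and finally the copies at 0. In the control the order per kb was AT4G12545, AIR1, AT4G12520, AT4G12510, EARLI1 and AZI1, followed by AT4G12490 and AT4G12500 at 0. Whether neighbours in these orders differ beyond the spread between libraries is not known. Summed over the 8 members with a row, the cluster had 1584 after IAA and 1171 in the control, a quotient of 1.35. AIR1 and AT4G12545 made up 96.8% of the sum after IAA and 79.9% in the control, and AT4G12510 with AT4G12520 made up 0% after IAA and 19.8% in the control. Only uniquely mapped reads enter these sums and orders. Of windows, 48.9% in AT4G12510 and 42.4% in AT4G12520 occurred once, against 91.6% in AIR1 and 91.2% in AT4G12545. The shares and the orders per kb were not corrected for this.

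AIR1 and AT4G12545 were also close copies, though less so. Their eight-cysteine domains were 88.0% identical and 313 of 336 aligned coding columns were the same. The longest identical coding run had 87 bases and is shown because a read that lies wholly within it fits both genes equally well (RefSeq, TAIR10.1, chr4:7439295-7439381 in AIR1 and chr4:7434370-7434456 in AT4G12545, both plus strand), in lower case throughout since no base differs.
AIR1 and AT4G12545: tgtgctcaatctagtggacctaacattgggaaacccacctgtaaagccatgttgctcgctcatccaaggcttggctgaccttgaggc
Still, 91.6% of the AIR1 windows and 91.2% of the AT4G12545 windows occurred once as exact matches, so most of each transcript could be counted on its own. At up to 2 mismatches, 74.2% of the AIR1 windows and 72.9% of the AT4G12545 windows had no second match. The regions before the annotated starts were 84.1% identical when aligned with gaps, and are shown because the means of AT4G12545 lay nearer to those of AIR1 than the means of any other gene did (RefSeq, TAIR10.1, chr4:7438865-7439114 for AIR1 and chr4:7433949-7434198 for AT4G12545, both plus strand). A link between these regions and the means was not tested. Capitals mark the 28 bases of each that differ or have no partner in the alignment.
AIR1: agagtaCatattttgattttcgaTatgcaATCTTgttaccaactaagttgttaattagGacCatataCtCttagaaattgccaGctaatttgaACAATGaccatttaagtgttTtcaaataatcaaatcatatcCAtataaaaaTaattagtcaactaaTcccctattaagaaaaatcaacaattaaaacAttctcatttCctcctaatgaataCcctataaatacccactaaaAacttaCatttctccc
AT4G12545: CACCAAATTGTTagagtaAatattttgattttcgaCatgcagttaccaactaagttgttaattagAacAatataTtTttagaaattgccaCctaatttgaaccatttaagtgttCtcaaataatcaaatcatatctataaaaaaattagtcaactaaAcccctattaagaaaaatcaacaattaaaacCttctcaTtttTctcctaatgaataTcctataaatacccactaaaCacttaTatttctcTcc
TATAAA began at -33 and -114 before the AIR1 start and at -34 and -115 before the AT4G12545 start, and TTGACN at -101 in AIR1 and -103 in AT4G12545. By distance in the plane of the log2 IAA mean and the log2 control mean, over 2 groups, the gene most like AIR1 was AT4G12545, at a distance of 0.153. Next came RP1, a ribosomal protein gene, at 0.211 with means of 904 after IAA and 508 in the control, and PAB2, a poly(A)-binding protein gene, at 0.27 with 672 after IAA and 482 in the control.

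AT4G12530 (chr4:7427834-7428563, minus strand), between the copies and the plus-strand genes, had no row, although 100% of its windows occurred once. The table held 0 genes at 0 in both groups, so a gene without reads would have no row, but other reasons for its absence were not tested. Of the 5 other loci annotated inside the cluster, AT4G12540 had a row, with 4.69 after IAA and 0.63 in the control. The other 4, AT4G12485, AT4G12495, AT4G12543 and AT4G12555, overlap EARLI1, AT4G12490, AT4G12545 and AIR1 on the opposite strand and had no row. Whether reads were counted by strand is not given in the sources used here, so reads from such overlaps cannot be told apart.

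The genes at the immediate flanks had quotients near 1. ORP2B, an oxysterol-binding protein gene next to AZI1, had a quotient of 0.859, and CPR1, an F-box gene next to AIR1, had 1.07. Of 10 protein-coding loci on each side, 17 had a row and 12 passed the minimum, 4 of them at least 2-fold higher after IAA and 0 lower, with a median log2 quotient of 0.07. The shares over all genes compared were 14.5% higher and 12.6% lower. Hop3, a co-chaperone gene, had 57.6 after IAA and 13.4 in the control, and SKU5, a gene for a cell-wall-associated protein of directional root growth, had 482 after IAA and 131 in the control. AT4G12600, of the L7Ae ribosomal protein family, had 134 after IAA and 56.6 in the control, and ORC1B, an origin recognition subunit gene, had 29.9 after IAA and 13.1 in the control. AT4G12410, of the auxin-responsive SAUR family, had 16.0 after IAA and was listed at 0 in the control.

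Genes for related proteins elsewhere in the genome were compared by the eight-cysteine domain. There were 11 genes whose domain was at least 50% identical to that of a member, of which 9 had a row and 6 passed the minimum. Of these, 1 was at least 2-fold higher after IAA and 5 were at least 2-fold lower, with a median log2 quotient of -2.68, beside 0.0 over all genes compared. Among all genes compared, 14.5% were at least 2-fold higher and 12.6% at least 2-fold lower. The 5 lower genes were the 5 most similar ones, and for each of them the closest member was AT4G12520, whose protein is the same as that of AT4G12510. AT1G62510, 75.9% identical, had 4.21 after IAA and 27.1 in the control. ELP, an extensin-like protein gene that was 74.7% identical, had 65.0 after IAA and 203 in the control, a quotient of 0.320. AT5G46900 and AT5G46890, themselves neighbours, had 0.37 each after IAA, the worth of 1 read, and 11.6 and 10.3 in the control, and 79.5% and 75.5% of their windows occurred once. AT2G45180 had 3.96 after IAA and 25.4 in the control. The gene on the higher side, AT4G15160, encodes a proline-rich protein whose domain was 51.2% identical to that of EARLI1, and had 359 after IAA and 24.97 in the control, a quotient of 14.4 on about 908 reads after IAA and 41 in the control.

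**Figure D5:**
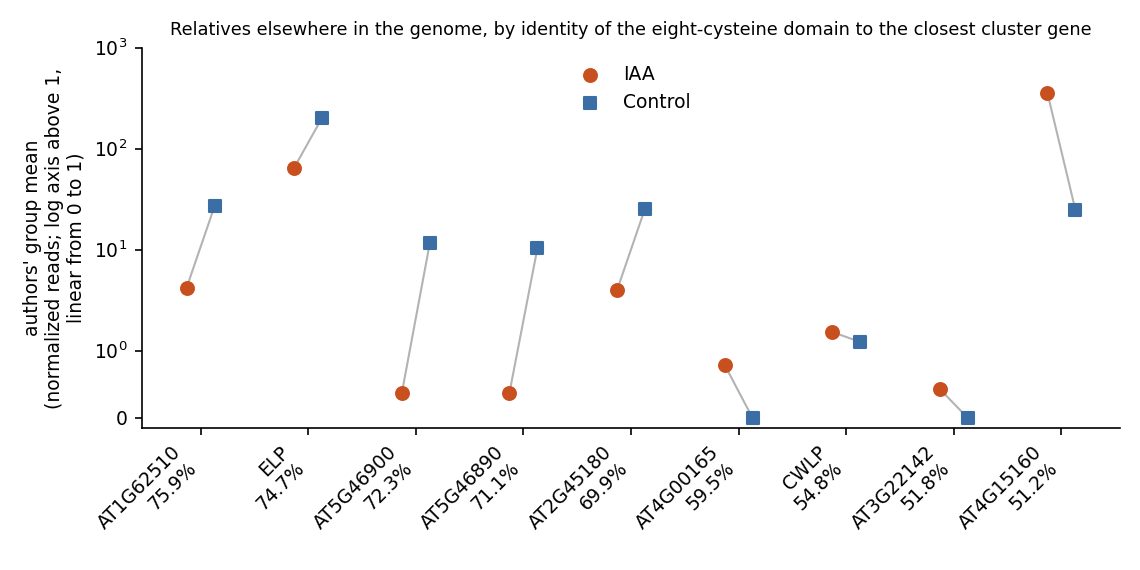
The authors' group means in normalized reads (log axis above 1, linear from 0 to 1) of the 9 relatives with a row, ordered by identity of the eight-cysteine domain to the closest cluster gene, with circles for IAA and squares for Control. The 5 most similar relatives were lower after IAA, and AT4G15160 was higher, at 359 after IAA against 24.97 in Control.

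Under the minimum, AT4G00165 had 0.79 after IAA and AT3G22142 had 0.43 after IAA, both listed at 0 in the control, and CWLP, a cell wall linker protein gene, had 1.53 after IAA and 1.22 in the control. The closest member was AT4G12520 for these 3 as well, at 51.8% to 59.5% identity. In the wider family by product name, 126 genes, 48 had a row and 25 passed the minimum, with 6 at least 2-fold higher, 11 at least 2-fold lower and a median log2 quotient of 0.17. All genes compared had shares of 14.5% higher and 12.6% lower. No single direction held for the family.

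Lists of genes linked to the members by function were counted in the same way. Over all genes compared, 14.5% were at least 2-fold higher after IAA and 12.6% at least 2-fold lower. Of 12 genes of azelaic acid priming and systemic immunity, the setting in which AZI1 is best known, 5 passed the minimum, with 1 at least 2-fold higher, 0 lower and a median log2 quotient of 0.10. MPK3, a stress-activated kinase gene, had 57.6 after IAA and 52.4 in the control, and MPK6, a related kinase gene, had 43.8 after IAA and 59.5 in the control. EDS1, a regulator of basal immunity, had 42.0 after IAA and 39.2 in the control, and NPR1, a salicylic acid receptor gene, had 39.1 after IAA and 49.99 in the control. The gene past 2-fold, named here after its values were seen, was HWI1, a plasmodesmata-located protein gene, with 23.5 after IAA and 9.7 in the control. Of 12 genes of lateral root emergence, 8 passed the minimum, with 5 at least 2-fold higher, 1 lower and a median log2 quotient of 1.41. The auxin influx carrier gene LAX3 had 381 after IAA and 38.6 in the control. PGAZAT, a polygalacturonase gene, had 154 after IAA and 3.17 in the control, and LBD18, a transcription factor gene, had 125 after IAA and 4.76 in the control.

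Among the other genes named for induction by auxin in root cultures, AIR12, which encodes a membrane-anchored cytochrome, had 166 after IAA and 3.08 in the control, a quotient of 53.8. AIR3, a subtilisin-like protease gene, had 102 after IAA and 47.0 in the control, and AIR9, a microtubule-associated protein gene, had 131 after IAA and 156 in the control. The AIR1 quotient of 1.74 lay between those of AIR9, 0.839, and AIR3, 2.17. On the scale of means AIR1 was above all 3 in both groups, and its control mean of 463 stood beside 3.08 for AIR12.

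Markers were listed to check the tissue. All 8 root markers had a row, and of the 7 past the minimum 0 were at least 2-fold higher and 4 at least 2-fold lower after IAA. Beside this, 14.5% of all genes compared were higher and 12.6% lower by the same limits. EIR1 (PIN2), an auxin efflux carrier gene of the root epidermis and cortex, had 66.3 after IAA and 68.8 in the control, and SCR, of the endodermis and stem cell niche, had 37.6 after IAA and 30.9 in the control. CASP1, of the differentiated endodermis, had 12.3 after IAA and 59.8 in the control, and EXPA7, of root hair cells, had 7.86 after IAA and 38.5 in the control. All 4 shoot markers also had a row, from 1.22 to 56.1 after IAA and from 4.31 to 85.0 in the control, and 2 of the 3 past the minimum were at least 2-fold lower after IAA. The part of these differences in cell types in the values of AT4G12510 and AT4G12520 was not tested.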

How the data were processed

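The deposited table held signal values, the authors' mean of size-factor-normalized reads per group. By the study's methods, 60-bp reads were mapped to TAIR10 with SHRiMP, and htseq-count was run on those that mapped to 1 place. The submitters' processing notes name HTSeq and DESeq. The other 4 columns hold the authors' comparison (fold, log2 fold, p-value and adjusted p-value) and were not used.

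Quotients of the IAA mean over the control mean were computed without a pseudocount. Exact conditional binomial intervals (95%) used the worth of 1 read per column. Of 20423 IDs, 20192 matched the RefSeq annotation of TAIR10.1. Exon windows of 60 bases were searched genome-wide, exactly and with up to 2 mismatches (bwa 0.7.19). Proteins were aligned globally (BLOSUM62, Biopython 1.88). The search for windows and for read steps was tested on simulated data. Members and lists were chosen with earlier results of these data known. By rule, named genes were all members, neighbours and relatives past 2-fold, at most 4 per list by average mean, and the 3 genes nearest to AIR1. Named outside this rule were ORP2B, CPR1, AT4G12410, HWI1, the other loci inside the cluster and relatives under the minimum. In the comparison of zeros, AT4G22666, TIP2;3, AT1G05650 and AT1G05660 were also named outside it. Alternatives were other pseudocounts, scalings, thresholds, minimum means, numbers of neighbours and identity limits.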

Additional observations from a re-analysis of the deposited data

How the results depend on the processing

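Adding the same number to both means cannot turn the direction of a quotient, and centring had almost no effect because the median log2 quotient of all genes was 0.0, so neither bears on stability. Adding 5 to both means gave 1.99 for AZI1 and 5.79 for EARLI1. Division by the column sum moved all log2 quotients by 0.07. Counts past 2-fold took both directions together. The count of members past 2-fold was 1, and became 3 at 1.5-fold and 2 with no minimum mean, all of them higher after IAA. It became 3 with 1 added to both means, namely EARLI1 higher and AT4G12510 and AT4G12520 lower. It became 3, the same members in the same directions, when genes listed at 0 were counted, an alternative chosen after seeing the data. The count of neighbours past 2-fold was 4, and became 2 with 5 loci on each side. The count of relatives past 2-fold was 6, of which 1 was higher and 5 lower, and became 5, all lower, at an identity of at least 60%. With up to 2 mismatches allowed, also chosen after seeing the data, windows found once fell to 72.9% in AT4G12545, 74.2% in AIR1, 82.5% in AT4G12490 and 86.0% in AT4G12500. No paired analysis was possible because the table holds means per group and no values per library, and for the same reason no library was left out. The depth limits AZI1, AT4G12490 and AT4G12500, with about 19, 1 and 2 reads after IAA.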
